A study of Mus musculus with 2 samples.

Results

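Frizzled receptors and their LRP5 and LRP6 co-receptors decide which cells of a tumour can receive Wnt signals, and their transcripts were followed here through the cell classes of mouse pancreatic tumours. The members were taken by name, Fzd1 to Fzd8 with Lrp5 and Lrp6, and are 10 of the 32285 genes listed in each count matrix. Tumours grew from KPC pancreatic cancer cells implanted orthotopically and were taken at day 21. The control library came from Porcnfl/fl littermates and the knockout library from Csf1r-Cre;Porcnfl/fl mice, so both groups carried the floxed allele of Porcn, the acyltransferase needed for Wnt secretion. Each library pooled the tumours of 5 mice. Csf1r-Cre belongs to the host mouse and acts in Csf1r-expressing cells at large, not in macrophages alone, and the ages of the mice were not given in the sources used here. With 1 library per group there is no test between the groups, and every difference given is one between the libraries. Intervals are exact 95% intervals that cover counting error only.

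Frizzleds are membrane receptors that bind the lipid of a Wnt protein through a cysteine-rich domain. When a Wnt joins a Frizzled to LRP5 or LRP6, the Axin complex is drawn to the membrane and beta-catenin escapes degradation, while Frizzleds without LRP can act through cell polarity pathways. The ubiquitin ligases RNF43 and ZNRF3 remove Frizzleds from the cell surface, and pancreatic cancer lines with RNF43 mutations are known to depend on FZD5.

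RefSeq promoters (GRCm38.p6) are shown for 4 of the 10 members, Fzd1, Fzd4, Fzd5 and Fzd7, and those of the other members are not shown. The levels of these 4 genes differed between classes, with Fzd5 high in epithelial/tumour-like cells, Fzd1 in fibroblast-like cells, Fzd4 in vascular classes and Fzd7 in monocyte/macrophage-like cells. Each window holds 250 bases before and 50 bases after the annotated start, 5′ to 3′ on the gene's strand. They lie at chr5:4758167-4758466 (minus strand), chr7:89404116-89404415 (plus strand), chr1:64737701-64738000 (minus strand) and chr1:59481897-59482196 (plus strand) in that order. Capitals mark 4 motifs found on either strand, and overlapping or adjoining matches run together. The TATA box was searched as TATAAA. The GC box was searched as GGGCGG. The third motif was the CCAAT box. TCF/LEF sites were searched as CTTTGAA and, as the other form, CTTTGAT.
Fzd1: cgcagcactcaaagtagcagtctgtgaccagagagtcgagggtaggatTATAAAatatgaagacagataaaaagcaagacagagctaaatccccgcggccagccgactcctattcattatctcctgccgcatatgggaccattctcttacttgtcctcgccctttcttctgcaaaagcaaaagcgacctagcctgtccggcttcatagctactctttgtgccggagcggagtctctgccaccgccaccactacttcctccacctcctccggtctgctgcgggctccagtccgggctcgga
Fzd4: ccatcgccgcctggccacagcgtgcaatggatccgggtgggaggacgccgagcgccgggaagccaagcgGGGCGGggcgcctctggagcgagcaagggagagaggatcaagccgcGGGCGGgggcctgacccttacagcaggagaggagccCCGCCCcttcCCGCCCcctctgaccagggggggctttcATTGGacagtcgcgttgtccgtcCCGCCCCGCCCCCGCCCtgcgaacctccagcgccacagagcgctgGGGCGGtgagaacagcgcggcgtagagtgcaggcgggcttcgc
Fzd5: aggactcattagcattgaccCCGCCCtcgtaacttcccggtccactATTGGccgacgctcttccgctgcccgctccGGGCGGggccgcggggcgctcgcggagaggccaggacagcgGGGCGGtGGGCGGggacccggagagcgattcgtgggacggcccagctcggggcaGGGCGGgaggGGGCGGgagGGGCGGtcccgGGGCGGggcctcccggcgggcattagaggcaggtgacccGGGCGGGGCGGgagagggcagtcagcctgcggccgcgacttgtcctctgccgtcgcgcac
Fzd7: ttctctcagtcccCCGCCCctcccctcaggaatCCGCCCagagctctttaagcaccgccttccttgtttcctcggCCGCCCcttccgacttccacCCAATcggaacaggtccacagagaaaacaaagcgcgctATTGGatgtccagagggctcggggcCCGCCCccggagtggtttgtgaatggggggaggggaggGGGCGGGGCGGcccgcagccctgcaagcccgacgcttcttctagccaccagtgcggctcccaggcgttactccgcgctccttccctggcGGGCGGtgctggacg
The Fzd4, Fzd5 and Fzd7 windows held 8, 10 and 7 GC boxes, and 35.7% of 32851 windows of this length held at least 1. The Fzd1 window held no GC box and 1 TATAAA at -202, letters present in 13.6% of windows. CCAAT, in 37.4% of windows, was found in Fzd4 (1), Fzd5 (1) and Fzd7 (2). The TCF/LEF letters, in 8.65% of windows, were in none of the 4. GC content was 54.0% for Fzd1, 72.7% for Fzd4, 75.7% for Fzd5 and 66.7% for Fzd7, beside a median of 52.7% over all windows.

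In GENCODE M21 on GRCm38, Fzd1 (chr5:4753839-4758035), Fzd2 (chr11:102604396-102608058), Fzd7 (chr1:59482424-59486955) and Fzd8 (chr18:9212163-9218136) have 1 exon in their longest coding transcript. Fzd4 (chr7:89404355-89413134) and Fzd5 (chr1:64730558-64737751) have 2, and Fzd3 (chr14:65192449-65262463) and Fzd6 (chr15:39006034-39038188) have 7. Lrp5 (chr19:3584828-3686564) and Lrp6 (chr6:134446476-134566965) have 23 exons, and introns make up 94.9% and 92.2% of these genes. UMIs, the molecules counted from the 3′ ends of transcripts, are not scaled to length. A level is therefore compared between cell classes within 1 gene, in CPM, the gene's UMIs scaled to a common total of all UMIs of the class.

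Filtering kept 11516 control and 10467 knockout cells, with median depths of 12167.5 and 10109 UMIs, and 46 barcodes, 38 of them kept, occurred in both libraries. Classes were rebuilt by clustering and are called "-like" because their names rest on marker genes. The labels call the samples tumour-infiltrating cells, yet epithelial/tumour-like cells were the most numerous, with 9439 in control and 5827 in knockout. Fibroblast-like cells numbered 640 and 733. Foreign marker RNA, read as free RNA, was 15.1% of its library-wide level in control and 4.53% in knockout fibroblast-like cells, 38.6% and 23.0% in mesothelial-like cells, and between 0.95% and 7.89% elsewhere. This is a class average. In fibroblast-like cells the keratin Krt8 was 1268 and 561 CPM in cluster 41 and at most 53.7 CPM in other clusters of at least 20 cells. For mesothelial-like cells, own expression of these markers cannot be told from free RNA. Porcn gave 8 UMIs in 509 control and 4 in 552 knockout monocyte/macrophage-like cells, at 3.27 CPM (1.41 to 6.44) and 1.42 CPM (0.388 to 3.64). These intervals overlap, and 3′ reads can count a recombined allele, so Porcn did not check the labels.

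The Frizzleds were divided between compartments, as the plot of receptor level by class shows. Fzd5 and Fzd6 UMIs came mainly from epithelial/tumour-like cells, Fzd1 and Fzd2 were high in fibroblast-like cells, and Fzd4 was highest in endothelial-like and pericyte/smooth muscle-like cells. Fzd7 was the Frizzled with the most UMIs in monocyte/macrophage-like cells. Lrp6 was found in nearly every class, and Lrp5 was high in epithelial, acinar-like and endothelial-like cells. Fewer receptor-bearing cells and less RNA per cell cannot be told apart in a class total.

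**Figure D1:**
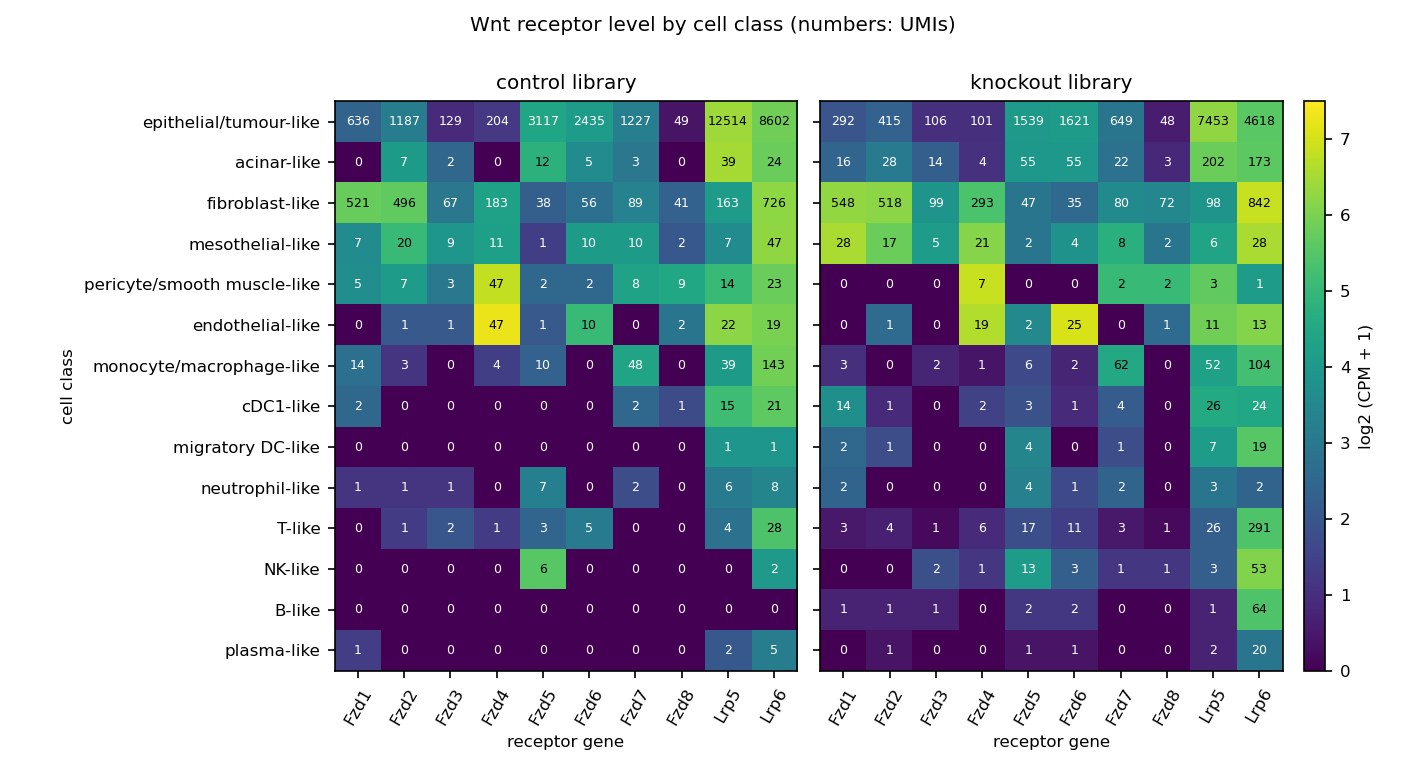
Level of each receptor gene (columns) in each cell class (rows) in the control library (left) and the knockout library (right), coloured by log2(CPM + 1), with the UMIs behind each level printed in the cell. Fzd5, Fzd6 and Lrp5 are bright in the epithelial/tumour row, Fzd1 and Fzd2 in the fibroblast row and Fzd4 in the endothelial and pericyte rows.

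Fzd5, needed for Paneth cell maturation in the intestine, had 3117 UMIs in control and 1539 in knockout epithelial/tumour-like cells, 96.5% and 90.2% of its UMIs in the libraries. Its level there was 20.8 CPM (20.1 to 21.5) in the control library and 15.5 CPM (14.7 to 16.3) in the knockout library. Fibroblast-like cells had 3.85 CPM (2.73 to 5.29) and 6.53 CPM (4.80 to 8.69), and in control this did not exceed the 2.90 CPM expected from free RNA. Fzd6, best known for planar polarity of skin and hair, gave 95.5% and 91.1% of its UMIs in the same class. Its levels of 16.2 CPM (15.6 to 16.9) and 16.3 CPM (15.5 to 17.1) have overlapping intervals.

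Fzd7, a Wnt receptor of intestinal stem cells, was spread more widely. It stood at 8.18 CPM (7.73 to 8.65) in the control library and 6.53 CPM (6.04 to 7.05) in the knockout library in epithelial/tumour-like cells. Monocyte/macrophage-like cells were higher in both libraries, at 19.6 CPM (14.5 to 26.0, 48 UMIs) and 22.0 CPM (16.9 to 28.3, 62 UMIs), where free RNA would give 0.574 and 0.285 CPM. These UMIs came from 37 control and 37 knockout cells, with at most 4 and 7 in 1 cell. Fibroblast-like cells had 9.03 and 11.1 CPM and control pericyte/smooth muscle-like cells 18.9 CPM (8.15 to 37.2, 8 UMIs). Mesothelial-like cells had 10 control and 8 knockout Fzd7 UMIs. Their levels lay within the monocyte/macrophage-like intervals of the same library.

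Fzd1 and Fzd2, a closely related pair of receptors, were mainly stromal by level. Fzd1 stood at 52.8 CPM (48.4 to 57.6) in the control library and 76.2 CPM (69.9 to 82.8) in the knockout library in fibroblast-like cells and at 4.24 CPM (3.92 to 4.58) and 2.94 CPM (2.61 to 3.29) in epithelial/tumour-like cells. Fzd2 stood at 50.3 CPM (46.0 to 54.9) and 72.0 CPM (66.0 to 78.5) in fibroblast-like and 7.91 CPM (7.47 to 8.38) and 4.18 CPM (3.78 to 4.6) in epithelial/tumour-like cells. For both genes the class intervals lie apart in each library. Epithelial/tumour-like cells, the most numerous class, held 53.0% and 32.1% of all Fzd1 UMIs and 68.4% and 42.0% of all Fzd2 UMIs. Mesothelial-like cells had Fzd1 at 11.2 CPM (4.52 to 23.1, 7 UMIs) and 91.9 CPM (61.1 to 133, 28 UMIs), with up to 7 of the knockout UMIs in 1 cell. Their foreign marker RNA was the highest of any class, whether free or their own.

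Fzd3, which guides axons, and Fzd8 had the fewest UMIs of the members, 216 and 104 over all kept control cells and 231 and 131 over knockout cells. Fzd3 stood at 6.79 CPM (5.27 to 8.63) and 13.8 CPM (11.2 to 16.8) in fibroblast-like cells and 0.86 and 1.07 CPM in epithelial/tumour-like cells. Fzd8 stood at 4.16 CPM (2.98 to 5.64) and 10.0 CPM (7.83 to 12.6) against 0.327 and 0.483 CPM. Both were thus higher in fibroblast-like cells beyond counting error. Control pericyte/smooth muscle-like cells had Fzd8 at 21.2 CPM (9.72 to 40.3, 9 UMIs).

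Fzd4 is the receptor for Norrin as well as Wnts and acts with LRP5 and TSPAN12 in retinal vessels. In endothelial-like cells it was 153 CPM (113 to 204, 47 UMIs) for control against 99.2 CPM (59.7 to 155, 19 UMIs) for knockout, from 25 and 10 cells. Pericyte/smooth muscle-like cells had 111 CPM (81.5 to 148, 47 UMIs) and 116 CPM (46.7 to 239, 7 UMIs), and these intervals overlap those of endothelial-like cells. Fibroblast-like cells followed at 18.6 CPM (16.0 to 21.5) and 40.7 CPM (36.2 to 45.7), and epithelial/tumour-like cells had 1.36 and 1.02 CPM. Tspan12 was also high in the vascular classes, at 94.6 and 88.7 CPM in endothelial-like and 89.7 CPM in control pericyte/smooth muscle-like cells, against 13.6 and 22.4 CPM in epithelial/tumour-like cells. Fzd6 in endothelial-like cells was 32.6 CPM (15.6 to 60) in control against 130.5 CPM (84.4 to 193) for the knockout, but 17 of its 25 knockout UMIs were in 1 cell.

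The mix of Frizzled UMIs differed accordingly. Fzd5 gave 34.7% and 32.3% and Fzd6 27.1% and 34.0% of those in epithelial/tumour-like cells. Fzd1 gave 34.9% and 32.4% and Fzd2 33.3% and 30.6% in fibroblast-like cells. Fzd4 made up 75.8% in control endothelial-like and 56.6% in control pericyte/smooth muscle-like cells, and Fzd7 60.8% and 81.6% in monocyte/macrophage-like cells. These are shares of counted UMIs, to which genes contribute also by how well their 3′ ends are captured.

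**Figure D2:**
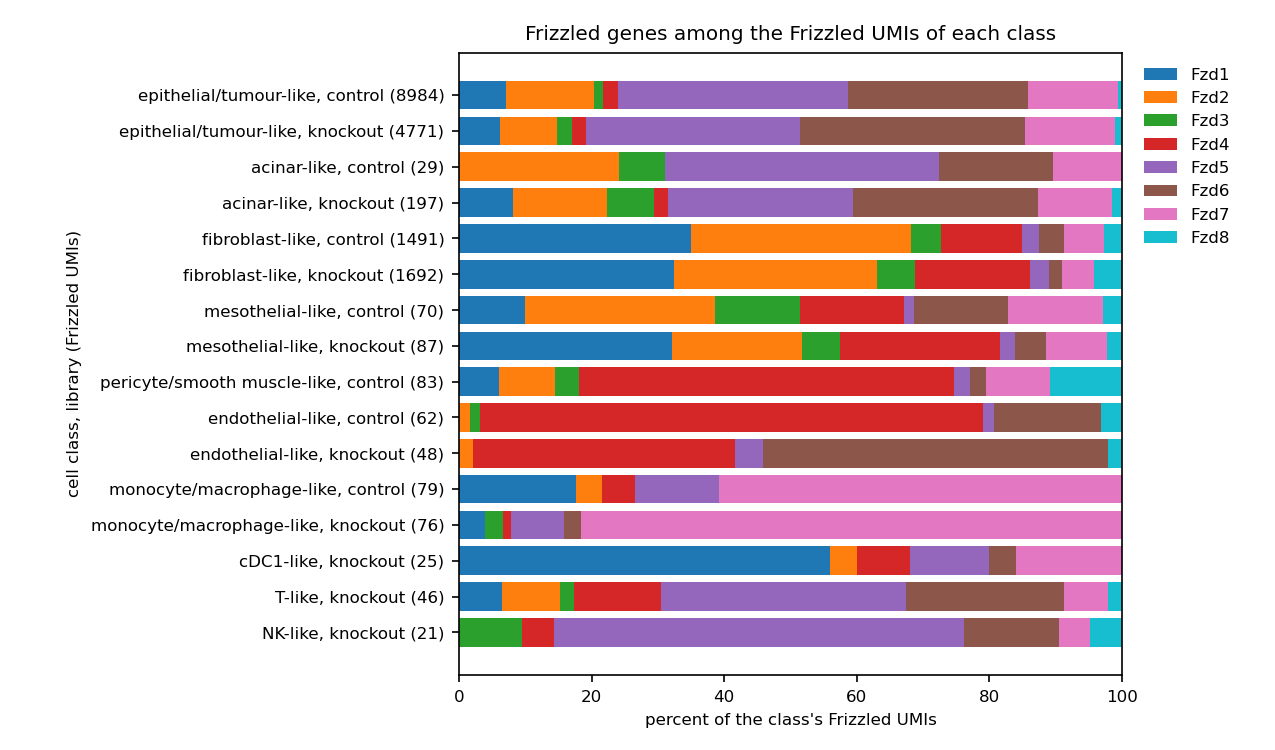
Share of each Frizzled gene (colours) among the Frizzled UMIs of a class, with 1 bar per class and library of at least 20 such UMIs, whose number stands in parentheses. Fzd5 and Fzd6 are the largest parts of the epithelial/tumour bars, Fzd1 and Fzd2 of the fibroblast bars, and Fzd7 of the monocyte/macrophage bars (60.8% and 81.6%).

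Other leukocytes had few Frizzled UMIs. T-like cells had 12 in 192 control cells, at 17.9 CPM (9.25 to 31.3) and 46 in 1638 knockout cells, at 6.74 CPM (4.93 to 8.99). Knockout B-like cells had 7 in 445 cells, at 4.67 CPM (1.88 to 9.62), and plasma-like cells, which secrete antibody, had 1 and 3. Fzd5 gave most Frizzled UMIs of NK-like cells, 6 of 6 in control and 13 of 21 in knockout. It had 6 UMIs in 5 of 36 control cells, at 45.6 CPM (16.7 to 99.3) and 13 in 9 of 225 knockout cells, at 16.4 CPM (8.74 to 28.1), both above the 0.755 and 0.554 CPM of free RNA. In knockout cDC1-like cells, dendritic cells that cross-present antigen, Fzd1 gave 14 of 25 Frizzled UMIs from 12 cells, at 12.3 CPM (6.74 to 20.7). Control cDC1-like cells had 2 Fzd1 UMIs.

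Of the co-receptors, Lrp5, known for its part in bone mass, was the more restricted. It had 12514 and 7453 UMIs in epithelial/tumour-like cells, at 83.4 CPM (82.0 to 84.9) and 75.0 CPM (73.3 to 76.7). Endothelial-like cells were in the same range at 71.8 CPM (45.0 to 109) and 57.4 CPM (28.7 to 103), although 7 of the 11 knockout UMIs were in 1 cell. Acinar-like cells had 88.8 CPM (63.2 to 121) and 55.6 CPM (48.2 to 63.8), and their level of the keratin Krt8 (1870.4 and 2078 CPM) was near that of epithelial/tumour-like cells (2098 and 2052 CPM). Fibroblast-like cells had 16.5 CPM (14.1 to 19.3) and 13.6 CPM (11.1 to 16.6), of which free RNA would give 11.6 and 2.79 CPM. Knockout T-like cells had 3.81 CPM (2.49 to 5.58).

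Lrp6, the broadly used co-receptor, stood at 57.4 CPM (56.1 to 58.6) and 46.5 CPM (45.1 to 47.8) in epithelial/tumour-like cells and 73.6 CPM (68.4 to 79.2) and 117 CPM (109 to 125) in fibroblast-like cells. T-like cells had 41.7 CPM (27.7 to 60.3) and 42.6 CPM (37.9 to 47.8), knockout B-like cells 42.7 CPM (32.9 to 54.5) and knockout NK-like cells 66.9 CPM (50.1 to 87.6). Control NK-like cells had 2 Lrp6 UMIs, at 15.2 CPM (1.84 to 54.9). The lowest levels were in control neutrophil-like cells, at 9.69 CPM (4.18 to 19.1, 8 UMIs), and knockout plasma-like cells, at 6.54 CPM (3.99 to 10.1, 20 UMIs), among levels resting on more than 5 UMIs. Lrp6 made up 91.8% (88.2 to 94.6) of the LRP UMIs of knockout T-like cells and 98.5% (91.7 to 100) of those of knockout B-like cells, but in epithelial/tumour-like cells 40.7% (40.1 to 41.4) in control and 38.3% (37.4 to 39.1) in knockout.

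Fibroblast-like, endothelial-like, control pericyte/smooth muscle-like and knockout mesothelial-like cells had more Frizzled than LRP UMIs, and epithelial/tumour-like, monocyte/macrophage-like and T-like cells had fewer. Per 100 LRP UMIs, fibroblast-like cells had 168 (154 to 182) Frizzled UMIs in control and 180 (166 to 195) in knockout, endothelial-like cells 151 (100.3 to 230.1) and 200 (120.1 to 341), and control pericyte/smooth muscle-like cells 224 (151 to 340.0). Mesothelial-like cells, with the highest foreign marker RNA, had 129.6 (89.6 to 188) and 256 (170.3 to 392). Epithelial/tumour-like cells had 42.5 (41.5 to 43.6) and 39.5 (38.2 to 40.9), and monocyte/macrophage-like cells 43.4 (32.9 to 56.8) and 48.7 (36.5 to 64.5). T-like cells had 37.5 (17.6 to 74.8) and 14.5 (10.4 to 19.8), and knockout B-like cells 10.8 (4.17 to 23.5). The intervals of control mesothelial-like cells and of control neutrophil-like cells, at 85.7 (36.2 to 199.7), include 100. Genes differ in how well their 3′ ends are captured, so 100 marks no balance of receptor and co-receptor, and only the order of classes is read. In knockout endothelial-like cells 17 of 25 Fzd6, 7 of 11 Lrp5 and 7 of 13 Lrp6 UMIs were each in 1 cell.

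Receptor and co-receptor were then counted within cells thinned to 2000 UMIs, which left out 231 control and 204 knockout epithelial/tumour-like cells and 23 and 35 fibroblast-like cells as too shallow. A Frizzled UMI was seen in 11.7% (11.0 to 12.4) and 9.02% (8.28 to 9.80) of epithelial/tumour-like cells and in 27.7% (24.2 to 31.4) and 35.5% (32.0 to 39.2) of fibroblast-like cells. Without thinning these shares were 52.9% and 48.3%, and 77.3% and 75.2%. Among plasma-like cells it was 0 of 49 and 0 of 194, where a limit of 3 cells on a count of 0 allows up to 6.12% and 1.55%. They are no matched background for the other classes. Their foreign marker RNA was 5.54% and 1.34% of its library-wide level, and their own markers took 331815 and 259964 CPM. Median depths before thinning were 12936 and 14960 UMIs in plasma-like, 13527.5 and 15238 in epithelial/tumour-like and 13225 and 9462.5 in fibroblast-like cells.

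Both families were seen together in 3.08% (2.74 to 3.46) and 2.03% (1.68 to 2.43) of epithelial/tumour-like cells and in 5.83% (4.12 to 7.99) and 7.59% (5.74 to 9.81) of fibroblast-like cells. Without thinning the shares were 44.5% and 39.9%, and 51.7% and 51.3%. The intervals of the fibroblast-like shares overlap between the libraries. Among monocyte/macrophage-like cells 2 of 329 control and 0 of 424 knockout cells had both, the latter allowing, by the same limit, up to 0.708%, and among T-like cells 1 of 136 and 1 of 1362. Without thinning these 2 classes had 3.93% and 1.45%, and 0.521% and 0.549%. A cell without a UMI at this depth may still express the gene.

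Between the libraries, both summed receptor levels were lower in knockout epithelial/tumour-like cells. The summed Frizzled level was 59.9 CPM (58.7 to 61.2) in the control library and 48.0 CPM (46.6 to 49.4) in the knockout library, a ratio of 0.801 (0.773 to 0.830), and the summed LRP level 141 CPM (139 to 143) and 121 CPM (119 to 124), a ratio of 0.863 (0.843 to 0.882). Fzd2 had the lowest ratio, 0.528 (0.471 to 0.590). Fzd1 was at 0.693 (0.601 to 0.797), Fzd5 at 0.745 (0.700 to 0.792), Fzd4 at 0.747 (0.583 to 0.953) and Fzd7 at 0.798 (0.725 to 0.878). Lrp5 was at 0.899 (0.873 to 0.925) and Lrp6 at 0.810 (0.781 to 0.840). The intervals of Fzd3, Fzd6 and Fzd8 included 1. With the 11 tumour clusters weighted equally, an alternative added after seeing the data, the summed Frizzled ratio was 0.914 and Fzd4 turned to 1.09. Past 2-fold were 0 of 10 members, where 4.95% of 17404 genes with at least 20 UMIs were past 2-fold higher and 2.65% lower. The median log2 ratio was -0.31 over the members and -0.06 over all genes tested.

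In fibroblast-like cells both summed levels were higher in the knockout library, but for the Frizzleds this depended on how clusters were weighted. The summed Frizzled level was 151 CPM (144 to 159) in the control library and 235 CPM (224 to 247) in the knockout library, a ratio of 1.56 (1.45 to 1.67), and the summed LRP level 90.2 CPM (84.3 to 96.3) and 131 CPM (122 to 139), a ratio of 1.45 (1.32 to 1.59). Fzd8 was at 2.41 (1.62 to 3.62), Fzd4 at 2.20 (1.82 to 2.65) and Fzd3 at 2.03 (1.47 to 2.80). These 3 of 10 members were past 2-fold higher, where 8.08% of 13477 genes were, and 0 were lower, where 7.11% were. Lrp6 was at 1.59 (1.44 to 1.76), Fzd1 at 1.44 (1.28 to 1.63) and Fzd2 at 1.43 (1.26 to 1.62). The median log2 ratio was 0.60 over the members and 0.09 over all genes tested.

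These fibroblast-like ratios moved with the clusters each library held. Cluster weights common to both libraries were applied to the 7 clusters that had at least 20 cells in each. With clusters weighted by their pooled UMIs the summed Frizzled ratio was 1.09, Fzd4 was at 1.11, Fzd3 at 1.32 and Fzd1 turned to 0.943. With clusters weighted equally, an alternative added after seeing the data, the summed Frizzled ratio turned to 0.962, Fzd1 to 0.767 and Fzd2 to 0.923. The summed LRP ratio was 1.31 under either weighting. Fzd6, Fzd7 and Lrp5, whose class ratios of 0.857, 1.23 and 0.824 have intervals that include 1, were at 2.14, 1.06 and 1.28 by pooled UMIs and at 2.20, 0.896 and 1.14 with equal weights. Without the 6 clusters that came mostly from 1 library (335 control and 124 knockout cells), the summed Frizzled ratio was 1.31 and Fzd4 was at 1.57. Lrp6 was above 1 in 7 of 7 clusters, from 1.02 to 1.55, and Fzd8 in 7 of 7, from 1.24 to 2.81. The interval lay above 1 in 1 of these clusters for Lrp6 and in 0 for Fzd8. Few UMIs lay behind Fzd8, 41 in control and 72 in knockout.

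**Figure D3:**
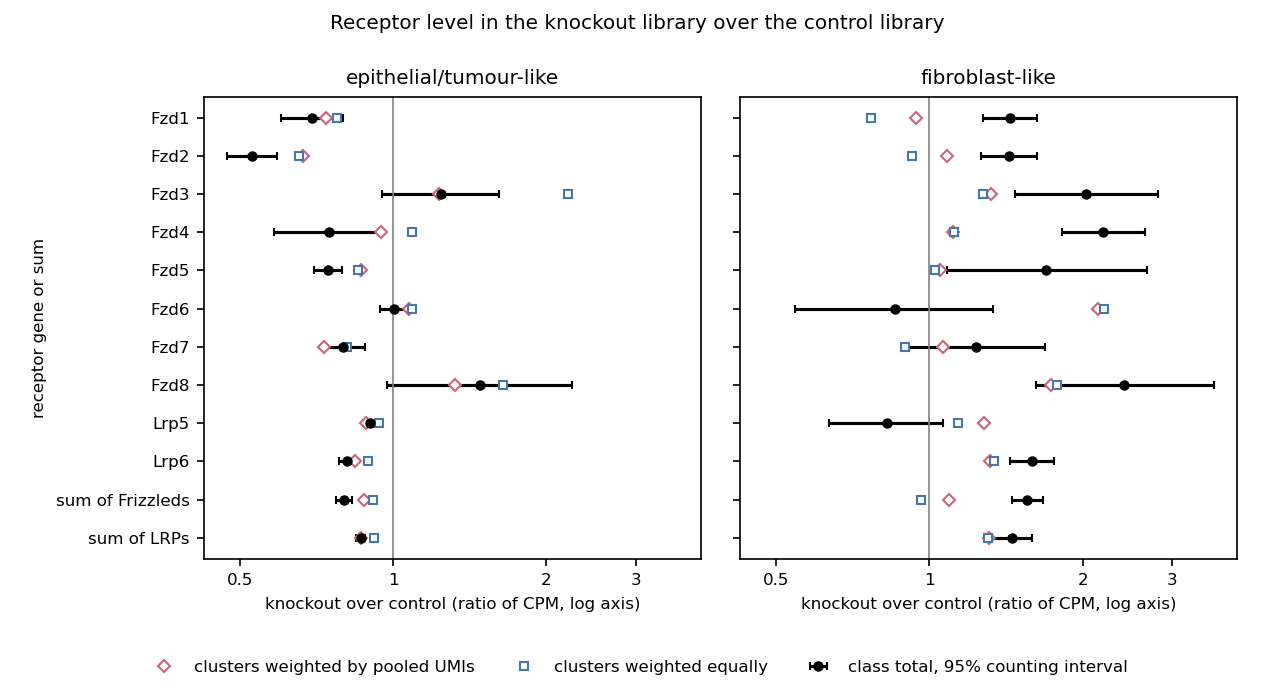
Ratio of CPM in the knockout library to CPM in the control library (log axis) for each receptor and for the summed Frizzled and LRP levels, in epithelial/tumour-like (left) and fibroblast-like (right) cells. Black points with bars are class totals with counting intervals, and open symbols are ratios with common cluster weights, by pooled UMIs (diamonds) or equal (squares), which in fibroblast-like cells put the summed Frizzled ratio at 1.09 and 0.962 and Fzd1 at 0.943 and 0.767.

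Epithelial RNA also differed between the fibroblast-like cells of the libraries, with Krt8 at 302 CPM in control and 58.7 CPM in knockout. With the free RNA level subtracted, the summed Frizzled ratio was 1.65 and the summed LRP ratio 1.80. Lrp5 went from 0.824 (0.635 to 1.07) to 2.22 and Fzd5 from 1.70 (1.08 to 2.67) to 6.22, so no direction is read for these epithelial genes in this class. Cluster 41, with 75 control and 24 knockout cells, had Krt8 at 1268 and 561 CPM, and without it the summed Frizzled ratio was 1.51. In the other fibroblast-like clusters of at least 20 cells in a library Krt8 was at most 53.7 CPM. The subtracted level is a class average and does not describe those clusters.

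Fibroblast-like clusters differed in their receptors, as the plot of fibroblast clusters shows. Fzd4 was highest in cluster 36, led by Svep1 and Slit3, at 94.3 CPM (39 UMIs) and 74.0 CPM (104 UMIs), and in cluster 43, led by Ptn and Svep1, at 62.8 CPM (11 UMIs) and 89.7 CPM (36 UMIs). In cluster 33, led by Lum and Col24a1, it was 6.99 CPM (21 UMIs) in 172 control cells and 16.8 CPM (4 UMIs) in 22 knockout cells. Fzd2 was highest in cluster 38, led by Mfap5 and Cilp, at 134 and 125 CPM. Fzd1 was 139 CPM in cluster 45, which held 76 knockout cells, and 194 CPM (34 UMIs) and 64.8 CPM (26 UMIs) in cluster 43. Lrp6 in cluster 36 was 114 and 176 CPM.

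**Figure D4:**
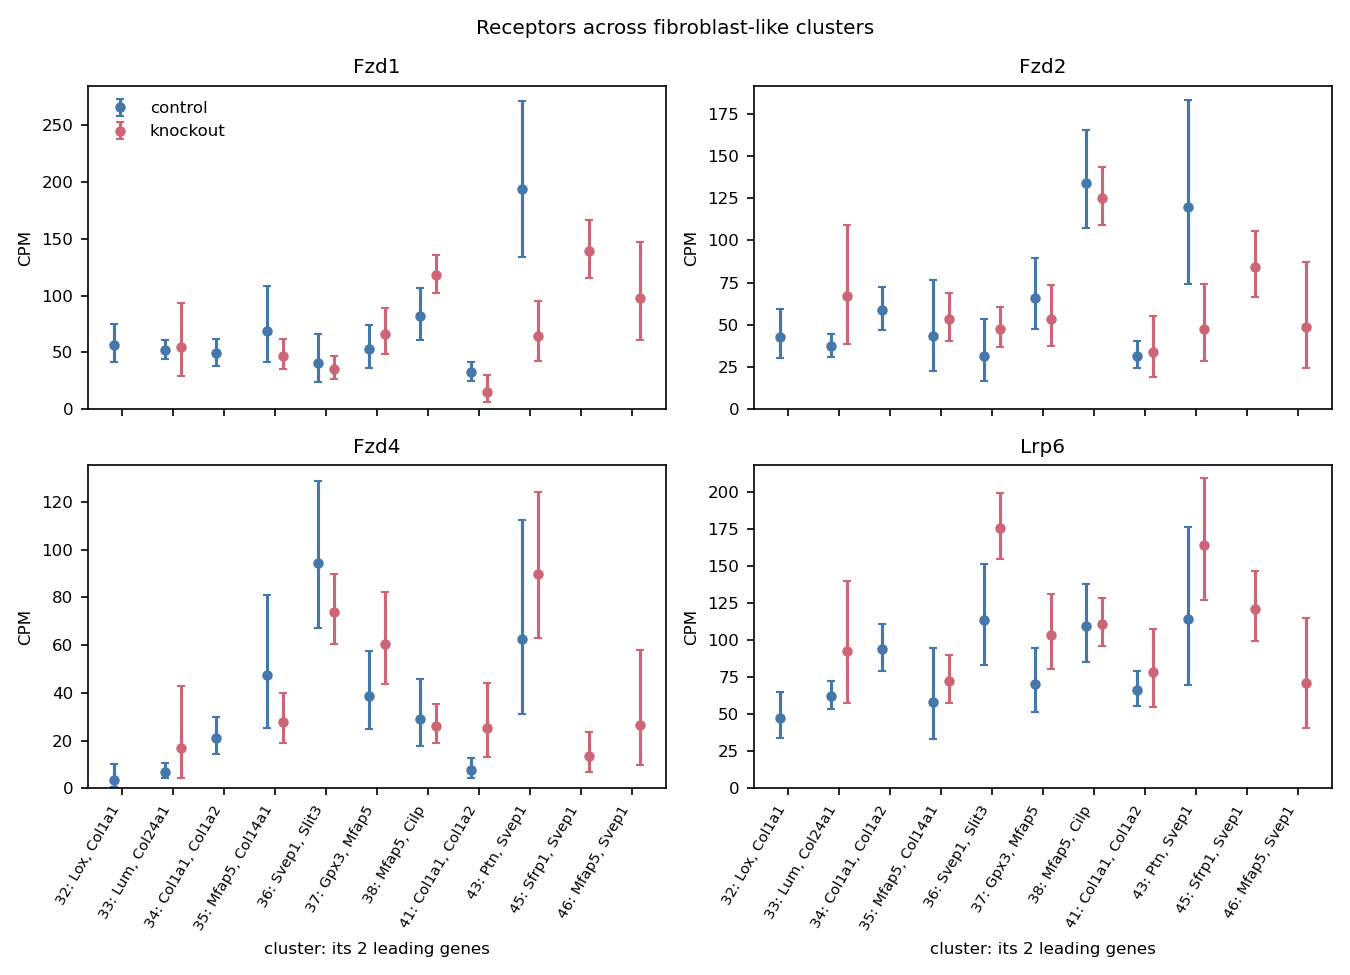
Fzd1, Fzd2, Fzd4 and Lrp6 in CPM (vertical axes from 0) in fibroblast-like clusters with at least 20 cells in a library, named by number and leading genes, for control (blue) and knockout (red) with counting intervals. Fzd4 is highest in clusters 36 and 43 and Fzd2 in cluster 38 in both libraries.

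Tumour clusters differed as well. Fzd6 was highest in cluster 4, led by Klhl1, Grem1 and Col7a1, at 44.8 CPM (348 UMIs) and 40.5 CPM (30 UMIs), against 9.45 and 9.11 CPM in cluster 1, led by Slurp1. Fzd2 in cluster 4 was 27.2 CPM (211 UMIs) and 12.1 CPM (9 UMIs), and Col1a1 there was 61.8 CPM in control beside 12.9 CPM in the class. Its part in these levels was not tested. Fzd5 was 28.2 and 25.2 CPM in cluster 0, led by Lgals4 with the mucin Muc5ac among its genes, and lowest in cluster 10 (Dynap, Prl2c2, Grem1), at 8.87 and 7.31 CPM. In cluster 10 Fzd7 was 15.5 and 9.97 CPM and Lrp5 126 and 90.2 CPM, while cluster 6, with the mitotic genes Pimreg and Anln among its leading genes, had Fzd7 at 3.45 and 3.36 CPM.

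**Figure D5:**
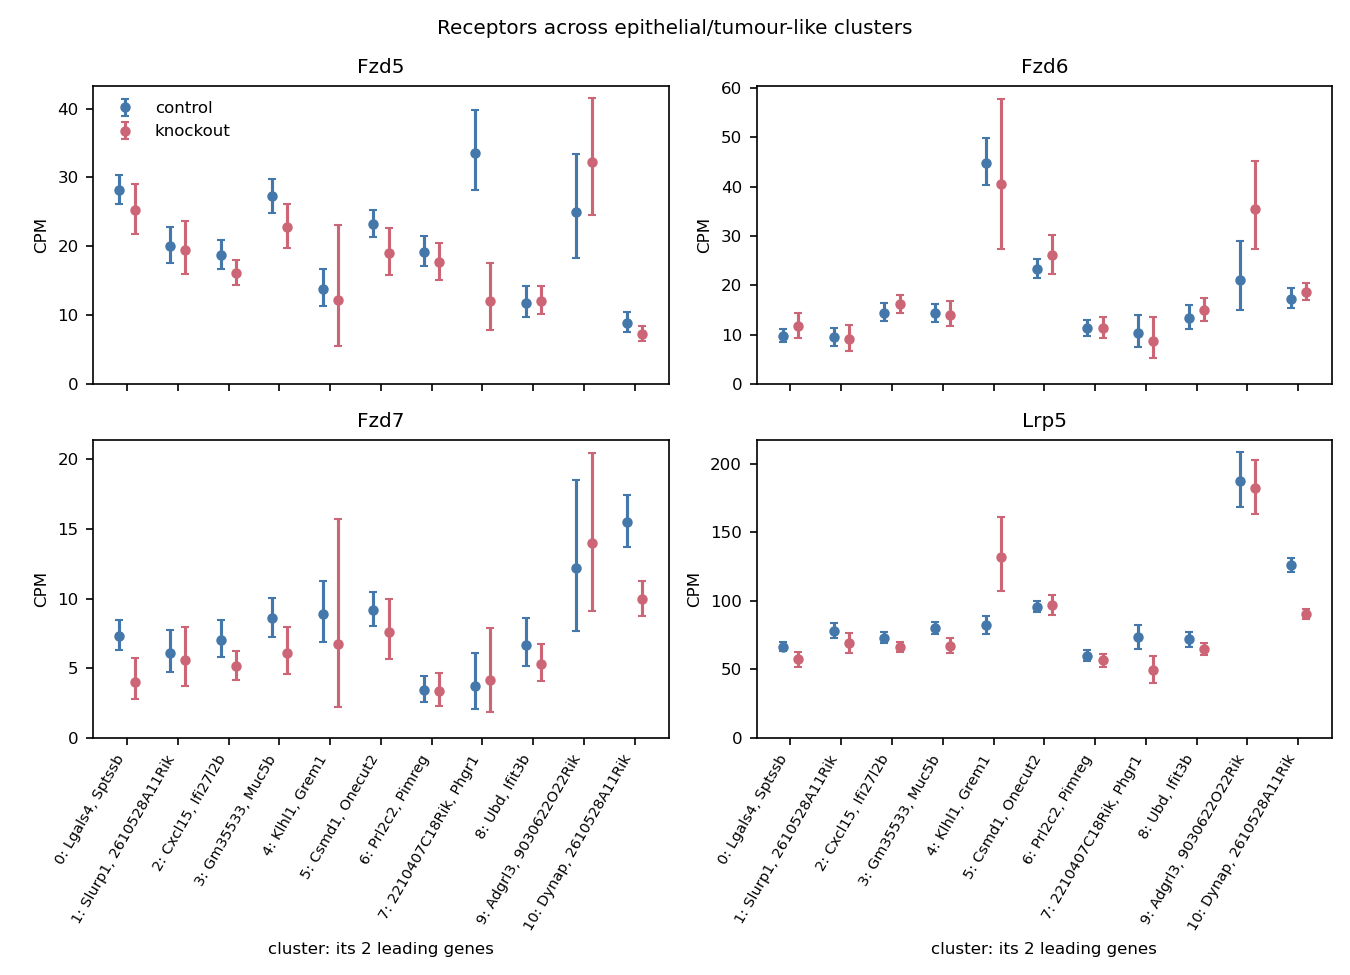
Fzd5, Fzd6, Fzd7 and Lrp5 in CPM (vertical axes from 0) in the 11 epithelial/tumour-like clusters, named by number and leading genes, for control (blue) and knockout (red) with counting intervals. Cluster 10 has the lowest Fzd5, cluster 4 the highest Fzd6 and cluster 9 the highest Lrp5 in both libraries.

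Lrp5 and Lrp6 were highest in cluster 9, at 188 and 182 CPM and 124 and 114 CPM. This cluster had median depths of 3963 and 3998 UMIs, the nuclear RNA Malat1 at 101594 and 76775 CPM against 40144 and 43333 CPM in the class, and mitochondrial UMIs of 5.78% and 5.24%. The part of these in its LRP level was not tested. The summed Frizzled level was lower in knockout in 10 of 11 clusters, in 5 of them with an interval below 1, and cluster 9 was the exception at 1.30 (1.03 to 1.66). The summed LRP level was lower in 10 of 11, in 9 of them with an interval below 1, and cluster 4 was the exception at 1.48 (1.25 to 1.74). In cluster 7, led by 2210407C18Rik and Phgr1, Fzd5 was 33.6 and 12.0 CPM and Fzd3 was 3.21 CPM (13 UMIs) and 18.0 CPM (39 UMIs).

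In monocyte/macrophage-like cells, where Csf1r-Cre is meant to act, the summed Frizzled level was 32.3 CPM (25.6 to 40.3) in the control library and 27.0 CPM (21.3 to 33.8) in the knockout library, a ratio of 0.837 (0.603 to 1.16). The summed LRP ratio was 0.746 (0.598 to 0.928), Lrp6 was at 0.633 (0.487 to 0.820) and Fzd7 at 1.12 (0.758 to 1.67). Of the 3 members with enough UMIs, 0 were past 2-fold higher, where 2.78% of 10269 genes were, and 0 lower, where 3.53% were. Fzd7 was highest in cluster 12, led by Mmp12, Arg1 and Chil3, at 26.1 CPM (34 UMIs) and 48.3 CPM (45 UMIs), a ratio of 1.85 (1.16 to 2.98). These UMIs came from 24 of 158 control and 21 of 93 knockout cells. The shares, 15.2% (9.98 to 21.8) and 22.6% (14.6 to 32.4), have overlapping intervals. Fzd7 was lowest in cluster 16, led by C1qa and C1qb, at 8.74 CPM (6 UMIs) and 4.16 CPM (4 UMIs). Lrp6 was arranged the other way between these clusters, at 36.1 and 20.4 CPM in cluster 12 and 100.5 and 67.6 CPM in cluster 16, with ratios of 0.565 (0.313 to 0.982) and 0.673 (0.472 to 0.959).

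In T-like cells the summed Frizzled ratio was 0.377 (0.196 to 0.781) and the summed LRP ratio 0.973 (0.675 to 1.45). However, 8 of the 12 control Frizzled UMIs came from 4 of the 35 control cells of cluster 28, where Krt8 was 167 CPM in control and 43.4 CPM in knockout and Arg1 212 and 5.86 CPM. Outside that cluster control T-like cells had 4 Frizzled UMIs, at 6.89 CPM (1.88 to 17.6), and knockout ones 37, at 7.22 CPM (5.09 to 9.96), a ratio of 1.05. The lower Frizzled level of knockout T-like cells thus rested on those few control cells, and the part of the Krt8 and Arg1 RNA in it was not tested. Of 3 members with enough UMIs, 1, Fzd5, was past 2-fold lower with a pseudocount of 1 UMI, where 5.91% of 11272 genes were, and 0 were higher, where 4.36% were. Fzd5 had 3 control and 17 knockout UMIs, and the interval of its ratio, 0.557 (0.161 to 2.96), includes 1. In neutrophil-like cells 0 members had 20 UMIs, where 7.42% of 5785 genes tested were past 2-fold higher and 7.29% lower.

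Other Wnt receptors followed different patterns. Ror1, a receptor for Wnt5a, stood at 213 and 425 CPM in fibroblast-like and 132 and 115 CPM in epithelial/tumour-like cells, and Ror2 at 75.7 and 76.5 CPM and 0.280 and 0.473 CPM. The shares of all genes past 2-fold higher and lower, 4.95% and 2.65% in epithelial/tumour-like, 8.08% and 7.11% in fibroblast-like and 4.36% and 5.91% in T-like cells, stand beside each count of a gene list here. Of the other Wnt receptors, 0 of 4 tested were past 2-fold in epithelial/tumour-like cells, and 1 of 5, Musk, was higher in fibroblast-like cells (7 and 44 UMIs). Of the genes of receptor turnover, Rnf43 was past 2-fold lower in epithelial/tumour-like cells, at 8.41 and 3.63 CPM, 1 of 5. In fibroblast-like cells the R-spondin receptor Lgr5 was higher, at 5.88 and 17.1 CPM, 1 of 3. The remaining Frizzleds, Fzd9 and Fzd10, had 19 and 6 UMIs over all kept control cells and 12 and 3 over knockout cells.

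The ligases that remove Frizzleds had their highest levels in lymphoid classes. Rnf43 was highest in NK-like cells, at 68.4 and 106 CPM (9 and 84 UMIs), followed by T-like cells at 47.7 and 24.3 CPM. Znrf3 was 152 and 181 CPM in NK-like, 117 and 114 CPM in plasma-like and 58.1 and 73.4 CPM in T-like cells, against 15.7 and 13.5 CPM in epithelial/tumour-like cells. Mesd, the chaperone of LRP5 and LRP6, was 77.6 and 73.7 CPM in epithelial/tumour-like, 73.9 and 81.6 CPM in fibroblast-like and 26.8 and 27.5 CPM in T-like cells.

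Of 13 chaperones and Frizzled partners tested in epithelial/tumour-like cells, 1 was past 2-fold, Adgra2, which was lower (1.61 and 0.312 CPM). Of 12 tested in fibroblast-like cells, 3 were higher, Reck (16.4 and 39.2 CPM), Gpc3 (77.0 and 212 CPM) and Prickle2 (42.4 and 102 CPM), and 2 lower, Sdc4 (354 and 125 CPM) and Celsr1 (3.14 and 0.139 CPM), of which Celsr1 did not exceed free RNA. Among canonical transducers, Pygo1 was higher in epithelial/tumour-like cells (11 and 20 UMIs), 1 of 20, and Tcf7 lower in fibroblast-like cells (24 and 7 UMIs), 1 of 19. Of 15 Wnt target genes in epithelial/tumour-like cells, Sp5 (10 and 18 UMIs) and Tnfrsf19 (46 and 100 UMIs) were higher and Notum (147 and 22 UMIs) and Rnf43 lower. Of 12 in fibroblast-like cells, Lgr5 was higher and Tcf7, Ccnd1 and Cd44 lower. Ccnd1 there, at 95.9 and 27.5 CPM, was near the 96.7 and 24.1 CPM expected from free RNA. Axin2, a general feedback target of beta-catenin, was not past 2-fold in these classes, at 18.7 and 28.9 CPM in fibroblast-like and 2.75 and 1.93 CPM in epithelial/tumour-like cells.

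In T-like cells 9 target genes were tested, with the pseudocount of 1 UMI. Axin2 (1.49 and 11.1 CPM, 1 and 76 UMIs) and the transcription factor Lef1 (74.6 and 190.1 CPM, 50 and 1298 UMIs) were past 2-fold higher. Rnf43 (32 and 166 UMIs) and Ccnd1 (28 and 75 UMIs) were past 2-fold lower. Lef1 is also a leading gene of cluster 28, which held 35 of 192 control and 559 of 1638 knockout T-like cells. Of 18 canonical transducers Lef1 was higher and Dvl1 (10 and 51 UMIs) and Dvl3 (11 and 55 UMIs) lower. Of 5 chaperones and partners Prickle1 (9 and 257 UMIs) was higher, and of 2 genes of receptor turnover Rnf43 was lower. The pseudocount weighs more on the smaller control counts and moves ratios in this class down. Without it Rnf43, at 47.7 and 24.3 CPM, and Dvl1 fell just short of 2-fold lower. In monocyte/macrophage-like cells 0 of 16 transducers and 0 of 5 target genes tested were past 2-fold.

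The genes most like a member were found by Pearson's r of log2(CPM + 10) over 19 profiles, each a class in 1 library with at least 50 cells. The profiles share libraries and differ in depth, so r is a description. Endothelial-like cells (44 control and 23 knockout) and mesothelial-like cells (45 and 31) fell under this limit and gave no profile. Fzd4 was most like Tril (0.996) and Aoc3 (0.99), and Fzd8 was most like Gnao1 (0.98). Fzd1 was most like Fgfr1 (0.97) and Fzd2 most like Cxcl12 (0.99), while Fzd3 followed Ypel4 (0.95). Fzd5 was most like Rab27b (0.90) and Fzd7 most like Gab1 (0.95). Lrp5 was most like Ccnd1 (0.97) and Lrp6 most like Dcaf8 (0.89). Among the members, r was 0.97 for Fzd4 with Fzd8, 0.92 for Fzd1 with Fzd2 and 0.71 for Fzd5 with Fzd6, and -0.02 for Fzd5 with Fzd8. The likeness of Fzd4 to Fzd8, Tril and Aoc3 does not cover endothelial-like cells. There Fzd4 had 47 control and 19 knockout UMIs and Fzd8 had 2 and 1.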

How the data were processed

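RNA of single cells was measured in 2 libraries, 1 per genotype. The deposited matrices hold raw UMI counts. Per the file headers their writer was Cell Ranger 8.0.0, while the submitters' processing notes name Cell Ranger 3.1.3 and mm10. Barcodes under 500 genes or over 15% mitochondrial UMIs were dropped from 13766 control and 12251 knockout barcodes, and 148 control (1.27%) and 341 knockout (3.16%) cells called doublets by Scrublet were removed. Cells were clustered with scanpy 1.11.5 (2000 variable genes without the Wnt lists, 30 components, Leiden resolution 1) and clusters named by at least 3 markers. UMIs were summed per class, with Poisson intervals for levels, conditional intervals for ratios (knockout over control) and Clopper-Pearson intervals for shares, from scipy 1.17.1. Free RNA was a class's lower foreign marker level, epithelial or fibroblast, relative to the library, times the gene's library-wide level. Genes with at least 20 UMIs in a class were read as past 2-fold with a pseudocount of 1 UMI. Ratios and calls were run on simulated counts drawn from the Poisson model that the intervals assume, without spread between cells, clusters or mice. That run checks the code and not whether the intervals fit these data. All members, the 3 genes most like each and genes of the lists could be named, and 1 result of this kind is not reported here. Members and lists were chosen with earlier results of these data known. Filters, doublets, resolution, naming, scaling, free RNA, cluster weights and thinning were varied.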

Additional observations from a re-analysis of the deposited data

Results flagged for a closer look

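Receptors whose ratio of knockout to control lay on opposite sides of 1 in different classes, with intervals excluding 1, are given here. The difference between classes was not tested, since there is 1 library per group. Fzd1 was at 1.44 in fibroblast-like cells and 0.693 in epithelial/tumour-like ones, Fzd2 at 1.43 and 0.528, Fzd4 at 2.20 and 0.747, and Fzd5 at 1.70 and 0.745. Lrp6 was at 1.59 in fibroblast-like, 0.810 in epithelial/tumour-like and 0.633 in monocyte/macrophage-like cells. The summed Frizzled ratio was 1.56 in fibroblast-like, 0.801 in epithelial/tumour-like and 0.377 in T-like cells. The summed LRP ratio was 1.45 in fibroblast-like, 0.863 in epithelial/tumour-like and 0.746 in monocyte/macrophage-like cells. The control Fzd5 level in fibroblast-like cells did not exceed that expected from free RNA. In fibroblast-like cells these ratios moved with the clusters of each library: with clusters weighted equally the summed Frizzled ratio was 0.962, Fzd1 was at 0.767 and Fzd2 at 0.923, and Fzd4 in epithelial/tumour-like cells was at 1.09. The T-like ratio rested on cluster 28, with 8 of the 12 control Frizzled UMIs, and was 1.05 without it.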

How the results depend on the processing

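No paired analysis was possible because each group has 1 library, and for the same reason none could be left out. Under the alternatives run, the summed Frizzled ratio ran between 0.789 and 0.914 in epithelial/tumour-like and between 0.962 and 1.65 in fibroblast-like cells, and the summed LRP ratio between 0.847 and 0.918 and between 1.24 and 1.80. With clusters weighted by pooled UMIs the fibroblast-like summed Frizzled ratio was 1.09, the summed LRP ratio 1.31 and the epithelial/tumour-like summed Frizzled ratio 0.878. Fzd1 in fibroblast-like cells reversed to 0.943. The cause of these reversals and of the later ones was not tested. With each cell weighted alike the fibroblast-like ratios were 1.31 (Frizzled) and 1.32 (LRP). Scaling by the median of ratios gave 0.845 and 0.910 in epithelial/tumour-like cells. Subtracting free RNA gave a fibroblast-like LRP ratio of 1.80. Alternatives chosen after seeing the data gave 1.60 with free RNA taken from gene and total, and 1.31 (Frizzled) and 1.24 (LRP) without fibroblast-like clusters mostly of 1 library. Equal cluster weights, also added, reversed the fibroblast-like summed Frizzled ratio to 0.962, Fzd1 to 0.767 and Fzd2 to 0.923, and Fzd4 in epithelial/tumour-like cells to 1.09. They gave a fibroblast-like LRP ratio of 1.31 and epithelial/tumour-like ratios of 0.914 (Frizzled) and 0.918 (LRP). Without cluster 28, also left out after seeing the data, the T-like summed Frizzled ratio reversed to 1.05. The share of cells with both families at 1000, 5000 and all UMIs was 0.916%, 14.2% and 44.5% in control and 0.828%, 10.2% and 39.9% in knockout epithelial/tumour-like cells, and 1.10%, 18.6% and 51.7% in control and 2.61%, 30.0% and 51.3% in knockout fibroblast-like cells. Genes past 2-fold numbered 1323 in epithelial/tumour-like, 2047 in fibroblast-like and 648 in monocyte/macrophage-like cells. A minimum of 100 UMIs gave 555, 1021 and 140, a minimum of 1 UMI 4146, 5540 and 3524, and a 3-fold threshold 565, 871 and 210. Of 658 levels under the alternatives 64 moved beyond their interval, and of 358 ratios of single genes and of the T-like Frizzled sum 41 moved beyond it and 5 reversed, which was counted only where the class interval excluded 1. Another 27 crossed 1 from class ratios whose interval included it. The remaining 124 values were the other summed ratios, the shares of cells with both families and the numbers of genes past 2-fold. Of these 43 moved, shares at other depths among them, 1 reversed and another 4 crossed 1. Under the strict filter the doublet caller marked no control cells, so that alternative kept its doublets. Classes under 100 cells, and Frizzled levels in leukocytes, rest on few UMIs.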
